A study of Mus musculus with 5 samples.

Results

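Immediate early genes are the first genes that a neuron transcribes after synaptic activity, within minutes and without new protein synthesis. Calcium entry and the MAP kinase cascade act on transcription factors already bound at their promoters, chiefly CREB, SRF and MEF2, and the transcripts decay again quickly. In the hippocampus their level is widely used as a trace of recent neuronal activity, and histone acetylation at their promoters is part of how they are switched on.

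The 10 genes described here were given by name, and each had a single row among the 23361 gene symbols of every file. They are the transcription factor genes *Fos*, *Fosb*, *Junb*, *Egr1*, *Egr2*, *Egr4*, *Npas4* and *Nr4a1*, the synaptic effector gene *Arc* and the phosphatase gene *Dusp1*. RNA-seq was performed on hippocampal tissue from mice aged 3 months. Control libraries are titled WT (n = 2). The study names *Hdac1* f/f mice as the controls of young cKO mice in its histology, and speaks only of controls for this RNA-seq. *Hdac1* cKO mice carried the floxed allele with *Nestin-Cre* (n = 3). The study's methods describe the young group as male mice, with experiments done in the light phase, and neither the labels nor these methods name a stimulus before the tissue was taken. *Nestin-Cre* acts in the precursors of neurons and astrocytes, and the study describes HDAC1 as still present in microglia of the cKO tissue. *Hdac1* itself measured 8.95 and 13.1 FPKM in control 1 and control 2 and 1.95, 3.12 and 3.37 FPKM in cKO 1 to cKO 3, and the groups did not overlap (log2 difference −1.66, limma adjusted p = 0.219, and −1.74 with adjusted p = 0.00389 when the library sets described next are a block). FPKM counts a gene's fragments relative to its transcript length and to the mapped total of its library, so levels of different genes can be compared.

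The libraries did not form a single technical group. Control 1 and cKO 1 shared repeated steps in their lowest FPKM values, and so did control 2, cKO 2 and cKO 3, with 24.6% to 28.4% of low genes in the fullest window of the ratio against 3.71% to 4.64% for pairs across these sets. The first pair is called set 1 and the other 3 libraries set 2. The labels do not say what separates them. With genotype in the model, 3.09% of the 12740 tested genes differed between the sets at a limma adjusted p of 0.05. Defining markers of neurons (10 of 10), astrocytes (8 of 8), oligodendrocytes (6 of 6), microglia (6 of 6) and endothelial cells (5 of 5) were above 0 in all libraries. The files give no read totals, and depth estimated from the same steps was between 5140000 and 6770000 fragments. No source says more of the replicates than that they are separate mice, so p-values measure the spread between these samples.

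The promoters are shown first, because the members are known targets of the same upstream factors and are compared below for how far they vary together. Of the 10 genes, 8 matched an entry in the RefSeq promoter windows (GRCm38.p6), which run from 250 bases before to 50 bases after a start site, and *Arc* and *Egr1* had no entry. The motif TGACG, the core of the cAMP response element bound by CREB, was present on either strand in 8 of these 8 genes, against 23.0% of the 27025 genes with such windows. For each gene the match nearest to its start site is printed below with its surroundings, 5′ to 3′ on the strand of the gene. Capitals mark TGACG, its reverse complement where the match is on the opposite strand, or in *Dusp1* a palindrome that holds a match on each strand.
Fos: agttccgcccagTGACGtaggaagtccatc
Fosb: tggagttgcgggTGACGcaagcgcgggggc
Junb: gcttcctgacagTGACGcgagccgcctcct
Egr2: tatgggcagcgaCGTCAcgggtattgaaga
Egr4: tttggtcatttaCGTCAcggcgccagggcc
Npas4: gacgtcacgggaTGACGtcggaagtctggg
Nr4a1: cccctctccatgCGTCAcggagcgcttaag
Dusp1: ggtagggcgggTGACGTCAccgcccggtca

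The *Fos* match lies at chr12:85473812-85473841 on the plus strand, with its motif starting 66 bases before the start site. The *Npas4* match lies at chr19:4990123-4990152 on the minus strand, 169 bases before the start. The *Fosb* (chr7:19310088-19310117), *Junb* (chr8:84978837-84978866) and *Egr4* (chr6:85513681-85513710) matches, all on the minus strand, start 60, 106 and 109 bases before it. The *Egr2* match lies at chr10:67537802-67537831 on the plus strand, 55 bases before the nearest of its annotated start sites that hold it. The *Nr4a1* match, at chr15:101266794-101266823 on the plus strand, was the nearest to a start site, at 40 bases, and its window held 4 matches in all. The full palindrome TGACGTCA was present in *Dusp1* alone, at chr17:26508597-26508626 on the minus strand, and in 2.03% of all genes of the table. The serum response element bound by SRF was found in *Egr2* alone, 1.81% of all genes having it. There it occurred at 2 places, each 72 bases before a different annotated start site. Both are shown here on the plus strand with the element in capitals, from chr10:67537484-67537513 and, next to the TGACG match above, from chr10:67537787-67537816.
Egr2, first: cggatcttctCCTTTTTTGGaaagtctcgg
Egr2, next: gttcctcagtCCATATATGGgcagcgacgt

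The EGR binding motif, searched as GCGTGGGCG and GCGGGGGCG, was found in *Fosb* and *Nr4a1* and in 3.93% of all genes. The AP-1 motif TGANTCA, which FOS and JUN proteins bind as dimers, was found in 0 of the 8 members and in 8.97% of all genes. The motifs were searched on both strands, and TGACGTCA contains TGACG on each. A match is a stretch of letters and not a measured binding site, and no match says only that these letters are not in this window.

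Expression of the 10 genes spanned a wide range in this tissue. *Arc*, which encodes a postsynaptic protein that promotes the internalisation of AMPA receptors, was the highest, with a mean of 80.7 ± 8.48 FPKM over the 5 libraries (SD), above 92.3% of tested genes. *Junb*, a JUN family partner in AP-1, followed with 33.8 ± 7.0 FPKM. *Nr4a1*, an orphan nuclear receptor, was at 12.1 ± 2.39 FPKM, the zinc finger factor gene *Egr1* at 10.04 ± 2.16 FPKM and *Dusp1*, which encodes a phosphatase that inactivates MAP kinases, at 9.99 ± 1.04 FPKM. *Fos* was at 6.98 ± 1.47 FPKM and *Egr4* at 4.86 ± 2.35 FPKM. The lowest were *Npas4*, a neuronal bHLH-PAS factor, at 1.96 ± 0.503 FPKM, *Egr2* at 1.12 ± 0.429 FPKM and *Fosb* at 0.976 ± 0.335 FPKM. *Arc* and *Junb* did not overlap with the gene next below them in any library, nor did *Dusp1* with *Fos*. All other neighbours in this order overlapped in their ranges. *Fosb* did not reach the mean of 1 FPKM needed for the test, so 9 of the 10 members were tested.

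**Figure D1:**
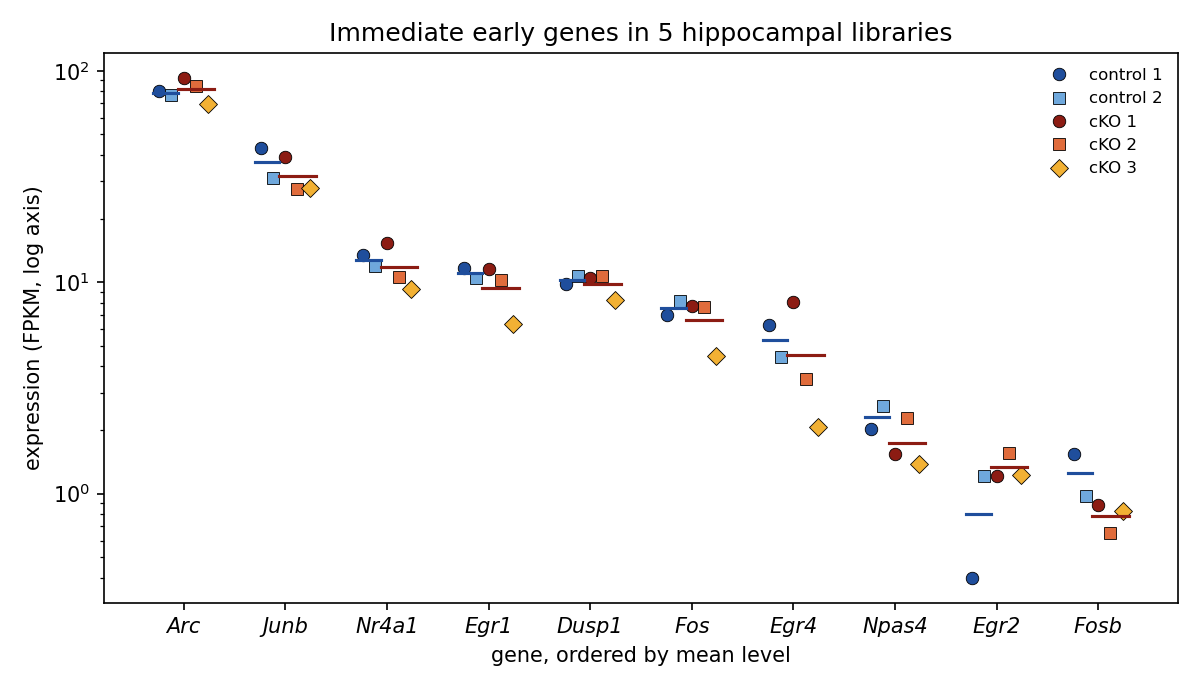
Expression of the 10 immediate early genes (FPKM, log axis) in each of the 5 libraries, with genes ordered by mean level; points are libraries, and horizontal bars are the means of control (blue, n = 2) and *Hdac1* cKO (red, n = 3). *Arc* lies between 69.7 and 92.4 FPKM and *Fosb* between 0.655 and 1.54 FPKM, and the cKO 3 library is the lowest point for 7 of the 10 genes.

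The comparison of cKO with control addresses whether loss of HDAC1, a deacetylase that works with corepressors, is accompanied by a different level of these genes. No tested member passed the study's threshold of a 1.5-fold change and an unadjusted p of 0.05, where the share of all tested genes that did was 0.659%. By limma, 0 of the 9 tested members also had an unadjusted p under 0.05, against 4.36% of all tested genes, and 0 had an adjusted p under 0.05, against 0.00785%. The log2 difference was below 0 for 7 of the 9 members, against 46.3% of all tested genes, with a median of −0.20, while the median over all tested genes was 0.01. Without cKO 3 the median was 0.02, with *Junb*, *Egr1* and *Npas4* still below 0, and without cKO 1 it was −0.31. It was 0.13 within set 1 and −0.25 within set 2. With the library set as a block, 0 of the 9 had an unadjusted p under 0.05, against 9.34% of all tested genes. The groups overlapped in each of the 9, against 20.4% of all tested genes without overlap. Markers of cell types also differed in level between the groups, without a test. The mean log2 level over the cKO libraries was below that of the controls for 9 of 10 neuron markers, 4 of 5 dentate granule cell markers, 4 of 5 CA pyramidal cell markers, 3 of 8 astrocyte markers, 1 of 6 oligodendrocyte markers, 3 of 6 microglia markers and 3 of 5 endothelial markers. Summed astrocyte markers were at 2542 and 2573 FPKM in the control libraries against 2780, 2819 and 2936 FPKM. Their part in the differences of the members was not tested. In whole tissue, fewer cells that express a gene and less RNA per cell cannot be told apart.

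The AP-1 genes were examined first. *Fos* (ENSMUSG00000021250.7, chromosome 12, 86814840 to 86818223, plus strand, mm9) measured 6.97 and 8.11 FPKM in control 1 and control 2 and 7.75, 7.63 and 4.46 FPKM in cKO 1 to cKO 3. cKO 1 and cKO 2 lay inside the range of the controls, and cKO 3 lay below every other library. The group means were 7.54 ± 0.806 FPKM (SD, n = 2) and 6.61 ± 1.86 FPKM (SD, n = 3), a log2 difference of −0.20 with a 95% interval from −0.68 to 0.29 (limma adjusted p = 0.971). Without cKO 3 the difference was 0.03.

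*Junb* (ENSMUSG00000052837.4, chromosome 8, 87500811 to 87502617, minus strand) measured 43.1 and 30.9 FPKM in control 1 and control 2 and 39.3, 27.7 and 27.9 FPKM in cKO 1 to cKO 3. Its high values were control 1 and cKO 1 and its low values the other 3 libraries, which are the libraries of set 1 and of set 2. The genotype difference was −0.22 (95% interval −0.65 to 0.21, limma adjusted p = 0.955), and with the set as a block it was −0.14. The difference between the sets was 0.47 (SE 0.07, limma adjusted p = 0.0233), which makes *Junb* the only member that passed correction in that comparison. The genotype difference was 0.01 without control 1, −0.45 without control 2 (unadjusted p = 0.0544) and −0.38 without cKO 1 (unadjusted p = 0.0372), with limma adjusted p from 0.528 to 0.9999 over its alternatives.

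*Fosb* (ENSMUSG00000003545.2, chromosome 7, 19888070 to 19895394, minus strand) measured 1.54 and 0.978 FPKM in control 1 and control 2 and 0.884, 0.655 and 0.824 FPKM in cKO 1 to cKO 3. It was the only member whose groups did not overlap, and 9.41% of all tested genes had non-overlapping groups with cKO the lower. With all detected genes in the fit, so that *Fosb* was included, the log2 difference was −0.33 (unadjusted p = 0.0597, limma adjusted p = 0.953). These values correspond to about 39 and 24 fragments in control mice and 22, 13 and 20 in cKO mice, so counting error alone is 16.0% to 27.7% of each value.

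The EGR genes did not share a single pattern. *Egr1* (ENSMUSG00000038418.6, chromosome 18, 35020861 to 35024638, plus strand) measured 11.7 and 10.5 FPKM in control 1 and control 2 and 11.5, 10.2 and 6.34 FPKM in cKO 1 to cKO 3. As for *Fos*, 4 libraries were close together and cKO 3 stood below them. Its log2 difference of −0.26 (95% interval −0.75 to 0.24, limma adjusted p = 0.955) was −0.03 without cKO 3 and −0.41 without cKO 1 (unadjusted p = 0.0634, limma adjusted p from 0.659 to 0.9999 over its alternatives). Of its exonic sequence, 8 nt overlap *Gm17507* on the opposite strand, whose reads cannot be told apart if strand was not used.

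*Egr4* (ENSMUSG00000071341.3, chromosome 6, 85461125 to 85463583, minus strand) varied most between libraries among the members on the log2(FPKM + 1) scale (SD 0.61). In FPKM its highest library was 3.89 times its lowest, as it was in *Egr2*. It measured 6.26 and 4.44 FPKM in control 1 and control 2 and 8.05, 3.47 and 2.07 FPKM in cKO 1 to cKO 3, so the highest and the lowest library were both cKO. The log2 difference between genotypes was −0.33, with a wide 95% interval from −1.23 to 0.56 (limma adjusted p = 0.974), and was 0.02 without cKO 3. Without cKO 1 it was −0.76, past the 1.5-fold threshold at an unadjusted p of 0.00697 (limma adjusted p = 0.630, with 0.630 to 0.9999 over its alternatives). Both libraries of set 1 were above all 3 of set 2, with a set difference of 0.91 (SE 0.23, limma adjusted p = 0.0768). With the set as a block the genotype difference was −0.18. It was 0.32 within set 1 and −0.55 within set 2.

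*Egr2* (ENSMUSG00000037868.8, chromosome 10, 66998223 to 67004936, plus strand) was the member with the largest positive difference. It measured 0.401 and 1.21 FPKM in control 1 and control 2 and 1.21, 1.56 and 1.22 FPKM in cKO 1 to cKO 3. Control 1 stood apart at about 8 fragments, with 23 to 24 in the other libraries, and control 2 was level with the cKO libraries. The log2 difference of 0.40 (95% interval −0.10 to 0.91, limma adjusted p = 0.955) was 0.07 without control 1. With a pseudocount of 0.1 in place of 1 it was 0.81. Without control 2 it was 0.73, past the 1.5-fold threshold at an unadjusted p of 0.0113 (limma adjusted p = 0.859, with 0.466 to 0.9999 over its alternatives).

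*Npas4* (ENSMUSG00000045903.8, chromosome 19, 4984355 to 4989971, minus strand) is induced in neurons by calcium entry and is the most activity-selective gene of the group. It measured 2.02 and 2.59 FPKM in control 1 and control 2 and 1.53, 2.28 and 1.39 FPKM in cKO 1 to cKO 3. Here cKO 1 was low together with cKO 3, while cKO 2 lay between the controls. The log2 difference was −0.28 (95% interval −0.71 to 0.14, limma adjusted p = 0.955), and it lay between −0.16 without control 2 and −0.42 without cKO 2 (unadjusted p = 0.0448, limma adjusted p from 0.610 to 0.9999 over its alternatives). The values rest on about 29 to 56 fragments per library.

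*Nr4a1* (ENSMUSG00000023034.6, chromosome 15, 101097277 to 101105223, plus strand) measured 13.5 and 11.96 FPKM in control 1 and control 2 and 15.4, 10.5 and 9.32 FPKM in cKO 1 to cKO 3. The controls lay inside the cKO range, and the 2 libraries of set 1 were again the highest. The genotype difference was −0.13 (95% interval −0.57 to 0.30, limma adjusted p = 0.974). It was 0.0028 without cKO 3 and −0.33 without cKO 1 (unadjusted p = 0.0378, limma adjusted p from 0.630 to 0.9999 over its alternatives). Its set difference was 0.40 (SE 0.12, limma adjusted p = 0.110). With the set as a block the genotype difference was −0.07. It was 0.17 within set 1 and −0.25 within set 2.

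The effector and feedback genes were the steadiest members. *Arc* (ENSMUSG00000022602.7, chromosome 15, 74499513 to 74503000, minus strand) measured 80.3 and 76.6 FPKM in control 1 and control 2 and 92.4, 84.3 and 69.7 FPKM in cKO 1 to cKO 3. The controls were close together, and the cKO libraries lay on both sides of them. The log2 difference was 0.06, with a 95% interval from −0.24 to 0.35 (limma adjusted p = 0.989). It was 0.17 without cKO 3, −0.03 without cKO 1 and −0.01 in TPM. *Dusp1* (ENSMUSG00000024190.6, chromosome 17, 26642535 to 26645464, minus strand) measured 9.76 and 10.7 FPKM in control 1 and control 2 and 10.5, 10.7 and 8.27 FPKM in cKO 1 to cKO 3. Again cKO 3 alone stood below the controls. The log2 difference of −0.06 (95% interval −0.38 to 0.26, limma adjusted p = 0.989) was 0.05 without cKO 3.

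**Figure D2:**
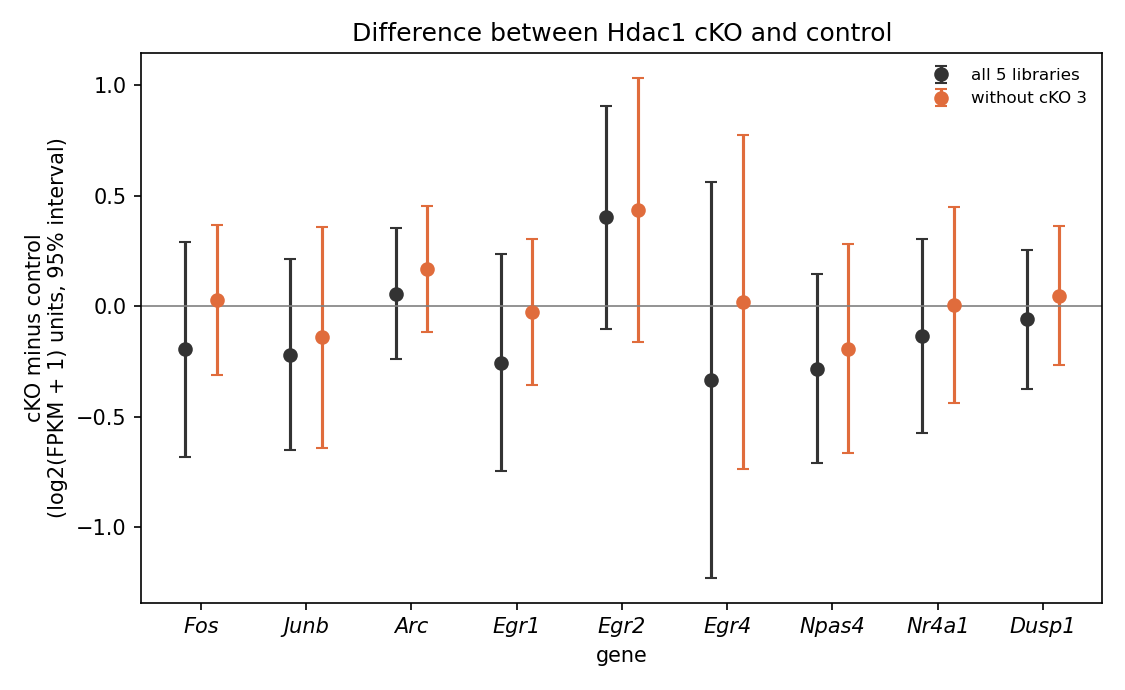
Difference between *Hdac1* cKO and control in log2(FPKM + 1) for the 9 tested immediate early genes, with 95% intervals from limma, for all 5 libraries (dark) and without cKO 3 (orange). Every interval includes 0, and *Fos*, *Egr4*, *Nr4a1* and *Dusp1* move from below to above 0 when cKO 3 is left out.

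The members were then compared across libraries, which asks whether they vary together. With 5 libraries no correlation across samples was computed, and the pattern is described by each gene's deviation from its own mean of log2(FPKM + 1). In cKO 3, 8 of the 9 tested members were below their mean, as were 5570 of all 12740 tested genes. Of the 9 members, 7 had their lowest value of the 5 libraries there, whereas 13.8% of all tested genes were lowest in that library. The exceptions were *Egr2*, which was 0.10 above its mean, and *Junb*, whose value in cKO 2 was lower still. In cKO 3 the mean deviation of the 9 members was −0.35, against 0.01 for all tested genes. *Egr4* (−0.83), *Egr1* (−0.56) and *Fos* (−0.52) deviated most, and *Arc* (−0.20) and *Dusp1* (−0.24) less.

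cKO 1 lay on the other side. There 8 of the 9 members were above their mean, with a mean deviation of 0.20 against −0.02 over all tested genes, of which 7140 of 12740 were below their mean, and *Arc*, *Egr4* and *Nr4a1* had their highest value. *Npas4* was the exception at −0.21. Control 1, control 2 and cKO 2 had mean deviations of 0.07, 0.07 and 0.01. The highest and the lowest library for these genes thus carried the same genotype on this scale. In TPM this did not hold, as control 2 was the highest library at 0.13, against 0.11 in cKO 1 and −0.35 in cKO 3.

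**Figure D3:**
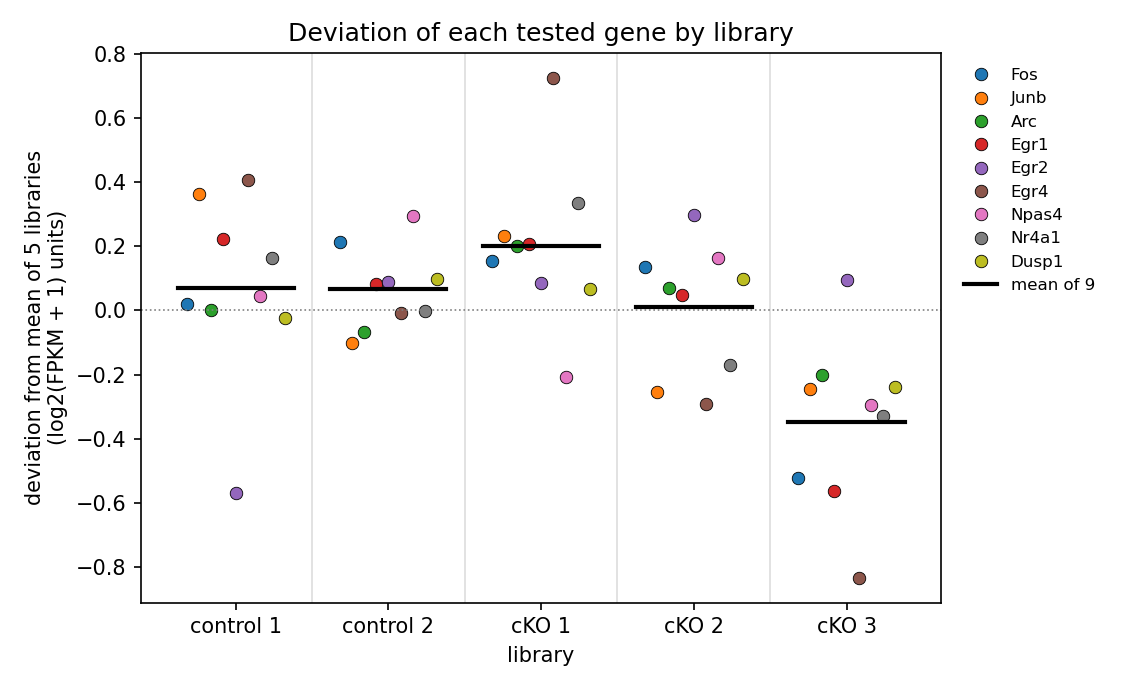
Deviation of each of the 9 tested immediate early genes from its own mean over the 5 libraries, in log2(FPKM + 1) units; points are genes and black bars the mean of the 9. The mean is −0.35 in cKO 3, where only *Egr2* is above 0, and 0.20 in cKO 1, where only *Npas4* is below 0.

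The part of the variation that the members shared was 41.5%, taken as the variance of their mean profile over the mean variance of the genes. Genes that vary independently with equal variance would give about 11.1%. Lists of related genes described below were also set against the value for their own size. Family partners and cofactors shared 24.25% against 7.69%, other early genes 10.23% against 4.76% and upstream regulators 8.56% against 3.45%. Glucocorticoid and heat shock genes, at 15.87%, were above theirs too. Late response genes, at 6.40% against 6.67%, were not. A share above that of independent variation was thus not particular to the members. The share of the members was 34.5% to 44.2% under the other scalings. Both cKO 3 and *Egr2* were left out after their values were seen, so a fall without the first and a rise without the second follow in part from that choice. Without cKO 3 the share was 10.6%, and with any other library left out it was between 41.2% and 52.4%. Without *Egr2* it was 57.8%, and 21.3% with cKO 3 left out too, where independent variation of the remaining 8 genes would give 12.5%. As a group the members also varied more between libraries than most genes, with a median SD of 0.28 on the log2 scale against 0.14 over all tested genes, and 5 of the 9 were above the 90th percentile of 0.28.

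Differences inside the library sets recombined the same library values, with control 2 used for cKO 2 and for cKO 3, so they are no separate evidence. cKO 1 minus control 1 was negative for 3 of the 9 members, with a median of 0.13. For cKO 2 minus control 2 it was negative for 6, with a median of −0.08. For cKO 3 minus control 2 it was negative for 8, with a median of −0.34 and the largest differences in *Egr4* (−0.83), *Fos* (−0.74), *Egr1* (−0.65) and *Npas4* (−0.59). Over all tested genes 48.0% and 49.8% of the differences were negative for cKO 1 and cKO 2, and the median for cKO 3 was 0.0001. Each is a difference of 1 library from another and has no test. Both libraries of set 1 were above all 3 of set 2 in *Junb*, *Egr1*, *Egr4* and *Nr4a1*, a pattern seen in 14.0% of all tested genes. The opposite order was seen in *Egr2* alone, where cKO 1 was below control 2 by less than 0.01 FPKM, and in 26.1% of all tested genes.

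Tissue composition in cKO 3 was read from markers. Summed neuron markers were at 2731 FPKM in cKO 3, inside the range of 2442 to 2810 FPKM of the other libraries, and 0 of the 10 had their lowest value there. Summed dentate granule cell markers were at 105.1 FPKM in cKO 3, their lowest library, and 105.6 to 115.6 FPKM in the others, and CA pyramidal cell markers at 249 FPKM against 234 to 282 FPKM. Of the 5 granule cell markers, 1 had its lowest value in cKO 3. Their mean log2 level was lowest in cKO 2, at 3.951 against 3.968 in cKO 3. Non-neuronal markers were at their highest in cKO 3, with 2936 FPKM for astrocytes (2542 to 2819 in the others), 1979 FPKM for oligodendrocytes (1524 to 1827), 172 FPKM for microglia (138 to 169) and 62.3 FPKM for endothelial cells (43.2 to 54.7). Their part in the low values of the immediate early genes was not tested.

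The wider activity programme was examined through lists of related genes. Of 15 family partners and cofactors of the members, 13 were tested. None passed the 1.5-fold threshold, 1 had an unadjusted limma p under 0.05, and 11 of the 13 differences were negative, with a median of −0.17. With the library set as a block 3 had an unadjusted p under 0.05, and 3 with the replicate number as a block. The shares of all tested genes were 4.36% without a block, 9.34% with the set and 11.2% with the replicate number. *Nr4a2*, a relative of *Nr4a1*, measured 16.4 and 17.0 FPKM in control 1 and control 2 and 13.5, 14.2 and 10.03 FPKM in cKO 1 to cKO 3, so the groups did not overlap. Its log2 difference was −0.39 (unadjusted p = 0.0307, limma adjusted p = 0.955), and −0.25 without cKO 3. *Jun*, the main partner of FOS proteins, was at 31.8 and 29.3 FPKM against 27.9, 20.2 and 25.4 FPKM, also without overlap (log2 difference −0.32, limma adjusted p = 0.955), with −0.19 without cKO 2 and −0.41 without cKO 1. *Jund* (−0.23), *Fosl2* (−0.17) and *Egr3* (−0.20) had negative differences and *Nr4a3* a positive one (0.13), each with overlapping groups. Without control 1 those of *Jund*, *Fosl2* and *Egr3* were −0.06, −0.09 and −0.10, and that of *Nr4a3* turned to −0.10. The difference of *Nr4a3* was 0.55 within set 1 and −0.20 within set 2. The median of the list was −0.09 without control 1, against −0.29 without control 2. In cKO 3, 12 of the 13 genes of this list were below their mean, with a mean deviation of −0.13, so it lay on the same side as the members by a smaller amount.

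Other early genes, such as *Ier2* and the antiproliferative gene *Btg2*, gave 21 tested genes of 25. None passed the threshold, 17 differences were negative, and the median was −0.10, which was −0.16 without cKO 1 and in TPM and 0.0032 within set 1. *Per1*, a clock gene named here after its values were seen, was the only gene of the list with an unadjusted p under 0.05 (log2 difference −0.33, limma adjusted p = 0.955). *Ier2* (−0.18) and *Btg2* (−0.14) had overlapping groups. The difference of *Ier2* was 0.16 without control 1, −0.53 without control 2, −0.36 within set 1 and 0.08 within set 2. *Btg2* had its lowest value in cKO 3, at 5.86 FPKM against 7.48 to 7.98 FPKM in the other libraries. Without cKO 3 the difference of *Btg2* was −0.03. The mean deviation of the list in cKO 3 was −0.05, and its lowest library was cKO 2 at −0.09.

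Late response genes are transcribed after the early factors have been made and include secreted and synaptic proteins. Of 18 such genes 15 were tested, with a median difference of 0.06, which was −0.02 without control 1, −0.0039 in TPM, 0.12 without control 2 and 0.12 without cKO 2. They did not follow the members in cKO 3. None of the 15 was lowest in that library, and their mean deviation there was 0.08. *Bdnf*, a neurotrophin gene, measured 8.44 and 9.90 FPKM in control 1 and control 2 and 9.68, 9.92 and 10.6 FPKM in cKO 1 to cKO 3 (0.13), with its highest value in cKO 3, and its difference was 0.02 without control 1 and 0.23 without control 2. *Homer1*, which encodes a postsynaptic scaffold, was at 37.9 and 36.3 FPKM against 41.2, 46.4 and 39.7 FPKM, without overlap (0.19, limma adjusted p = 0.955, and 0.12 without cKO 2).

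*Vgf*, a neuropeptide precursor gene, was the 1 gene of these lists past a 1.5-fold change and an unadjusted p of 0.05. It measured 33.7 and 24.9 FPKM in control 1 and control 2 and 22.6, 13.9 and 18.5 FPKM in cKO 1 to cKO 3, a log2 difference of −0.66 (SE 0.20, unadjusted p = 0.0115). It did not pass correction (limma adjusted p = 0.955, with 0.116 to 0.9999 over its alternatives). The difference was −0.55 in set 1 and −0.61 in set 2. It was −0.45 without control 1, −0.48 without cKO 2 and −0.5845 with the set as a block, each under 1.5-fold. Without moderation of variances the unadjusted p of the linear fit was 0.112.

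The upstream regulators were the steadiest of these lists, though no steadier than tested genes at large. All 29 were tested, none passed the threshold, and the median difference was −0.07, with 10 positive and 19 negative differences. The median was −0.01 without control 2 and within set 1, −0.02 without cKO 2 and −0.13 in TPM. Their median SD over the 5 libraries was 0.1453, against 0.1445 over all tested genes. *Mef2d* (−0.36) and *Rps6ka2* (−0.24), named after their values were seen, were the 2 genes with an unadjusted p under 0.05 (limma adjusted p = 0.955 for both). The share of all tested genes was 4.36%. With the library set as a block the count was 4, against 9.34% of all tested genes. With the replicate number as a block it was 7, against 11.2%. *Srf* measured 25.0 and 20.1 FPKM in control 1 and control 2 and 25.0, 18.7 and 19.4 FPKM in cKO 1 to cKO 3 (−0.10), and *Creb1* at 8.30 and 8.05 against 9.19, 8.75 and 8.97 FPKM (0.12), the latter without overlap of the groups (limma adjusted p = 0.956). *Srf* had its high values in set 1, as *Junb* and *Egr4* did, with a set difference of 0.34 (limma adjusted p = 0.0592). In cKO 3 the mean deviation of the list was 0.0091. Genes of the glucocorticoid and heat shock responses, which handling can induce, had a mean deviation of 0.03 in cKO 3, and 0 of the 10 passed the threshold. Their median difference of −0.07 was 0.08 without control 2, 0.02 without cKO 2, −0.13 in TPM, 0.14 within set 1 and −0.17 within set 2.

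**Figure D4:**
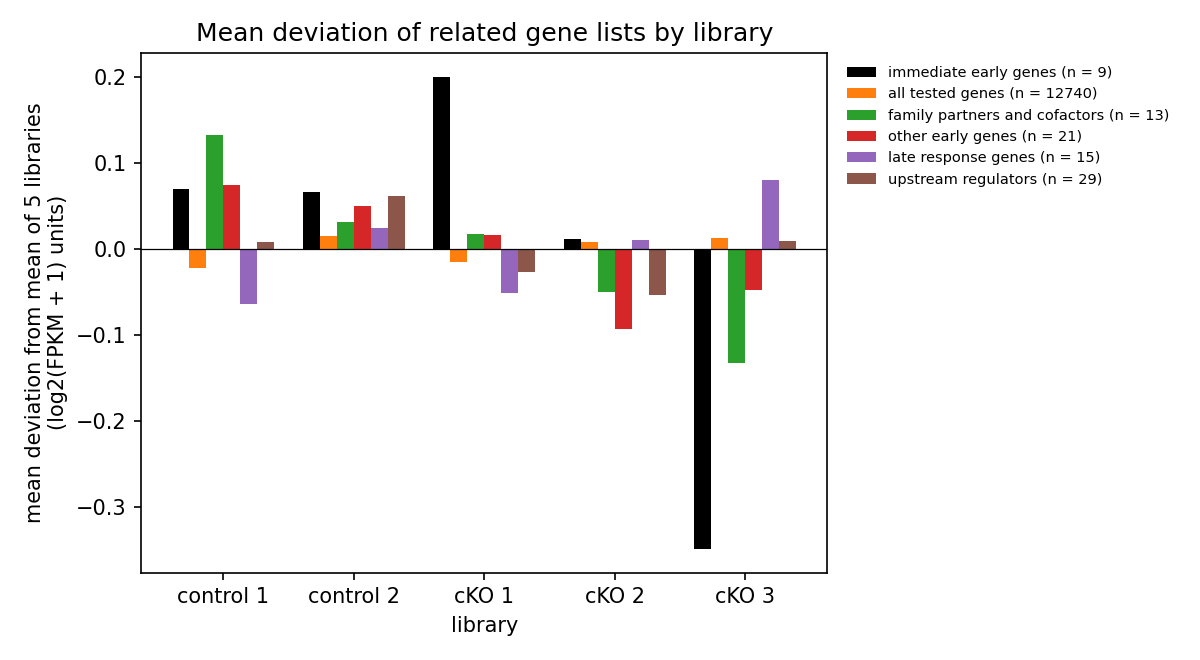
Mean deviation from the 5-library mean in log2(FPKM + 1) units for the immediate early genes (black, n = 9), all tested genes and 4 lists of related genes in each library. In cKO 3 the immediate early genes are at −0.35, family partners and cofactors at −0.13 and late response genes at 0.08.

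The 5 tested genes outside the group with the profile nearest to the members' mean profile over the 5 libraries were *Tmem170*, *Cth*, *Fam76b*, *Nxph2* and *Krt12*. Likeness was the root mean square distance between deviations, which was 0.02 for *Tmem170* and *Cth*, 0.04 for *Fam76b* and 0.05 for *Nxph2* and *Krt12*, with a median of 0.24 over all other tested genes. These genes were picked for their small distances, so the gap to the median follows from the choice. Their levels were low, at 1.25 to 2.28 FPKM for *Tmem170*, 3.14 to 4.78 for *Fam76b*, 0.800 to 1.905 for *Nxph2* and 1.405 to 2.58 for *Krt12*. *Cth*, for example, measured 3.88 and 3.87 FPKM in control 1 and control 2 and 4.56, 3.66 and 2.72 FPKM in cKO 1 to cKO 3. Among the members themselves *Dusp1*, *Arc* and *Nr4a1* were nearest to the mean profile, at 0.10, 0.10 and 0.11, and *Egr2* and *Egr4* farthest, at 0.37 and 0.38. The mean includes each member, and this distance also grows with the size of a gene's deviations. *Egr4* deviated to the same side as the mean in control 1, cKO 1 (0.73) and cKO 3 (−0.83). In control 2 (−0.01) and cKO 2 (−0.29) it deviated to the other side.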

How the data were processed

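Hippocampal RNA-seq of 2 control and 3 *Hdac1* cKO mice was analysed, with groups and numbers taken from sample titles. Each deposited file holds FPKM values that the authors computed per library by Tophat2 alignment and Cufflinks 2.0.0 with the mm9 annotation. Replicates were not pooled. FPKM give no read totals, so counting errors rest on approximate fragment numbers. Whether counting used strand is not given in the sources used here.

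Genes averaging 1 FPKM or more were tested with limma 3.58.1 (R 4.3.3) on log2(FPKM + 1), genotype as the only term, with a variance trend, two-sided p-values and Benjamini-Hochberg adjustment over 12740 genes. Differences on this scale understate changes of low genes. The method was tested on simulated data. Coordinates are from GENCODE vM1 (the build of mm9), in which 21207 symbols (90.8%) matched. Library sets joined libraries with over 10% of genes under 0.3 FPKM in a window of 0.05 log2 units of their ratio. Fragment numbers used the step of 1 fragment and the longest transcript.

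Members and lists were chosen with earlier results of these data known. Named genes were the members, *Hdac1*, list genes past the threshold, 12 fixed list genes (*Jun*, *Jund*, *Fosl2*, *Egr3*, *Nr4a2*, *Nr4a3*, *Ier2*, *Btg2*, *Bdnf*, *Homer1*, *Srf* and *Creb1*) and the 5 nearest profiles. *Per1*, *Mef2d*, *Rps6ka2* and *Snora30* fall outside this rule and were named after their values were seen. Leaving out a library from the shared variation, and leaving out *Egr2*, were chosen after seeing the data. Alternatives were a pseudocount of 0.1, other filters, scalings and variance models, blocks, and leaving out each library.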

Additional observations from a re-analysis of the deposited data

How the results depend on the processing

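Over all tested genes, 84 passed the 1.5-fold change and unadjusted p of 0.05, and 1, the small nucleolar RNA gene *Snora30* (named after its values were seen), passed an adjusted p of 0.05. The first count was 142 with a pseudocount of 0.1, 43 with a minimum mean of 5 FPKM, 31 without moderation of variances and 133 with the replicate block, and 92 to 231 with a library left out. The second was 0 without moderation, 14 under the replicate block, 5 under the set block and 1 to 5 with a library left out. The count of members past the threshold was 0 to 1 with a library left out (*Egr4* without cKO 1, *Egr2* without control 2) and 0 otherwise. Their median difference was −0.20, 0.13 within set 1, and −0.31 to 0.02 with a library left out, the positive value being that without cKO 3. For these changes the cause was not tested.

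The replicate numbers pair nothing stated in the labels, and same-numbered libraries deviated together with r = 0.402 and r = 0.269 across genes. Under the replicate block the third cKO library has no partner, so estimates equal those without cKO 3. There the direction turned for *Fos* (0.0276), *Egr4* (0.0171), *Nr4a1* (0.0028) and *Dusp1* (0.0475). With a library left out in turn, log2 differences ranged from −0.3119 to 0.0276 for *Fos*, −0.7623 to 0.0171 for *Egr4*, −0.3299 to 0.0028 for *Nr4a1* and −0.1223 to 0.0475 for *Dusp1*, which was also at 0.0001 without control 2. *Arc* ranged from −0.0325 without cKO 1 to 0.1683 and was at −0.0099 in TPM, under which the median over all tested genes was −0.0469 in place of 0.0146. *Junb* ranged from −0.4529 to 0.012, *Ier2* from −0.5266 to 0.1606, *Srf* from −0.248 to 0.0489 and *Nr4a3* from −0.0971 to 0.3552, each turning without control 1, where the lone control is assumed to vary like the cKO libraries. *Hdac1* passed an adjusted p of 0.05 under the replicate block (−1.7668) and likewise under the set block (−1.7437). No member passed an adjusted p of 0.05 under any alternative. The smallest was 0.443, for *Arc* with the replicate block. Depth limits *Fosb*, *Egr2* and *Npas4* most.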
